A study of Mus musculus with 2 samples.

Results

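Among mouse induced myogenic progenitor cells (iMPCs), 475 of 9349 kept cells (5.08%, exact binomial 95% interval 4.64 to 5.55%) carried Scg2, Sfrp4 or Cxcl14 RNA while holding little Dcn, Myog or Pax7. These cells were chosen by their own counts of unique molecular identifiers (UMIs, the tags that mark single captured RNA molecules). A member held at least 3 UMIs of Scg2, Sfrp4 and Cxcl14 together, at most 2 of Dcn, at most 1 of Myog and at most 1 of Pax7. Levels of those 6 genes are therefore descriptions, and no result rests on them. Members were set beside 359 Dcn-high cells (Dcn of at least 5 UMIs, Pax7 of 0) and 1839 Pax7-positive cells (Pax7 of at least 2, Myog and Dcn of at most 1) of the same library. The question was whether these cells resembled fibroblasts, resembled muscle progenitors, or had a profile of their own.

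Pax7 is the transcription factor that marks satellite cells, the resident stem cells of skeletal muscle, and Myog is switched on when their progeny commit to form muscle fibres. Decorin, the product of Dcn, is a matrix proteoglycan of fibroblasts and other connective tissue cells. Scg2 encodes a granin of the secretory granules of neurons and endocrine cells, Sfrp4 a secreted inhibitor of Wnt signalling, and Cxcl14 a secreted chemokine.

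The series holds 1 library of iMPCs and 1 of mouse embryonic fibroblasts (MEFs), both of genotype Tg:Pax7-nGFP/C57BL6;DBA2, so that all cells carry the Pax7 reporter. The iMPCs were derived from MEFs with MyoD plus F/R/C and then kept in F/R/C medium, and the MEFs were kept in MEF medium. F/R/C is not spelled out in the labels. In published work on such cells it stands for forskolin, which raises cAMP, RepSox, which blocks a TGF-beta receptor, and a GSK3 inhibitor, which activates Wnt signalling. How MyoD was delivered and how many animals or clones gave the cultures are not given in the sources used here. With 1 library per group nothing has a replicate check and no test was made. Every interval below is an exact 95% interval, and cells of the 1 library share its history. Intervals of levels, ratios and shares of cells cover counting error only. Intervals of shares of genes treat genes as independent draws, although many vary together, and hold no counting error of UMIs.

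The median depth was 18159 UMIs and 3847 genes per cell in members, 17700 UMIs in Dcn-high, 20428 in Pax7-positive and 20846 in all kept cells. Scrublet marked 8 members as doublets (1.68%), against 4.03% of all kept cells and 5.29% of Dcn-high cells. It marked 1.79% of Pax7-positive cells. In cells within the members' Dcn, Myog and Pax7 limits that held no UMI of Scg2, Sfrp4 or Cxcl14 the share was 1.10%. Free RNA, taken from barcodes of 200 to 600 UMIs, would supply 2.06% of a kept cell's UMIs at the ratio of median depths. Kept cells of the 2 libraries shared 16 barcodes (0.171% of the iMPC cells), none of them a member's.

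Scg2 and Cxcl14 carried the selection, and Sfrp4 added little to it. Levels are given as CPM, a gene's UMIs over all UMIs of a set's cells scaled to 1000000, with exact Poisson intervals. Scg2 stood at 219 CPM (209.8 to 229) in members, 66.8 in Dcn-high, 27.9 in Pax7-positive and 1.03 in the 2340 Myog-high cells (Myog of at least 5, Pax7 of 0, Dcn of at most 1). Cxcl14 stood at 196 CPM (187 to 205) in members, 90.6 in Dcn-high, 23.5 in Pax7-positive and 1.39 in Myog-high cells. Sfrp4 reached only 14 CPM in members, 5.13 in Dcn-high and 2.66 in Pax7-positive cells. Free RNA would give 0.146 CPM of Scg2 and 0.169 CPM of Cxcl14 in a kept cell.

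**Figure D1:**
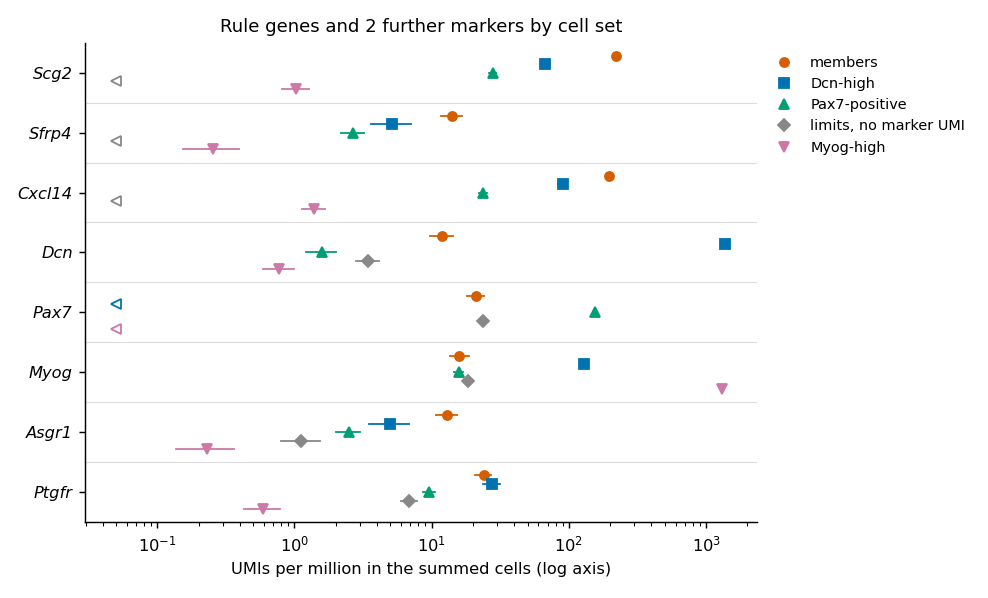
Level of the 6 genes used in the selection and of Asgr1 and Ptgfr (CPM, log axis) in members and 4 other cell sets of the iMPC library, with exact 95% Poisson intervals as lines; open triangles at the left edge mark a level of 0. Members stand highest for Scg2 (219), Sfrp4 (14) and Cxcl14 (196), Dcn-high cells for Dcn (1374), Pax7-positive cells for Pax7 (154) and Myog-high cells for Myog (1299).

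Most members did not hold all 3 genes at once. Of the 475, 198 held Scg2 and Cxcl14, 141 Cxcl14 alone, 61 Scg2 alone, 43 all 3 genes, 17 Sfrp4 and Cxcl14, 14 Scg2 and Sfrp4, and 1 Sfrp4 alone. Cxcl14 was seen in 84.0% of members, Scg2 in 66.5% and Sfrp4 in 15.8%, against 2.99%, 1.5% and 0.385% of Myog-high cells, whose median depth was 28669 UMIs. The label's 3 genes thus describe the set together, and Sfrp4 is at 0 UMIs in 400 of its cells. Per member the summed count ran from 3 to 85, with a median of 5 UMIs. The limits ran through a continuum of cells. Within the other limits, 162 cells had a summed count of 2 and 118 a count of 3, and 112 cells missed only by holding 2 UMIs of Pax7, while 193 members held 1. For Dcn, 33 members held 2 UMIs and 19 cells missed with 3. For Myog, 147 members held 1 and 22 cells missed with 2. A further 594 kept cells had the summed count but broke a limit, 336 of them on Pax7, 252 on Dcn and 163 on Myog.

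Scg2 lies on chromosome 1 (GRCm38, chr1:79434669-79440120, minus strand) and Cxcl14 and Sfrp4 on chromosome 13 (chr13:56288643-56296551, minus strand, and chr13:19623104-19632994, plus strand). All of them are protein-coding. Scg2 is a known target of cAMP signalling, and the 250 bases before the RefSeq start of Scg2 (GRCm38.p6, chr1:79440027-79440276) were searched for the full cAMP response element TGACGTCA, which reads the same on both strands. They hold 1 match, 68 bases before the start. The 30 bases around it (chr1:79440076-79440105, written along the gene) are shown with the element in capitals.
Scg2: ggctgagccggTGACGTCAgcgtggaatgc
The stretch lies before the start in RefSeq and inside the first exon, in the 5′ UTR, of the longer of the GENCODE models. The same search over all 32851 RefSeq windows of that length found the element in 1.55%. The windows of Cxcl14, Asgr1 and Ptgfr held none. No window of these genes or of Scg2 held the letters CTTTGAT of a TCF/LEF element (3.21% of all windows), and TGANTCA of an AP-1 element (6.75%) was found once, in 1 window of Asgr1. Both strands were searched. These are letter matches in a window and nothing was measured at them.

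Asgr1 and Ptgfr, named as further markers and not used to select, differed in their levels beside the comparison sets. Asgr1, a subunit of the liver's asialoglycoprotein receptor, stood at 12.9 CPM (10.7 to 15.4) in members, 4.99 in Dcn-high, 2.48 in Pax7-positive and 0.229 in Myog-high cells. It was seen in 87 members (18.3%), and no other hepatocyte gene listed reached 10 CPM. Ptgfr, the receptor of prostaglandin F, stood at 23.9 CPM in members and 27.4 in Dcn-high cells, a log2 ratio of -0.20 (-0.48 to 0.08), and at 9.57 in Pax7-positive cells. Ptgfr thus separated members from Pax7-positive cells only.

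Against Dcn-high cells, 172 of 7929 genes with at least 10 CPM in either set were at least 2-fold higher in members (2.17%) and 426 were at least 2-fold lower (5.37%). Against Pax7-positive cells, 528 of 7919 genes were at least 2-fold higher (6.67%) and 414 at least 2-fold lower (5.23%). Both comparisons cut cells of 1 library by 6 of its genes, so these shares describe the sets and are read as nothing more. The Dcn-high set has no limit on Myog and carries muscle RNA. Mylpf, a fast muscle myosin light chain, stood at 1167 CPM there against 258 in members and 239.7 in Pax7-positive cells. In the 319 Dcn-high cells with at most 1 Myog UMI, a set made after the data were seen, Mylpf stood at 254.

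Members held fibroblast genes well above Pax7-positive cells and below Dcn-high cells. Of the 15 fibroblast genes at 10 CPM or more (Dcn left out), 13 were at least 2-fold higher in members than in Pax7-positive cells and 0 lower, with a median log2 ratio of 1.65 over the 17 with at least 10 UMIs. Over all genes that median was -0.02. Against Dcn-high cells 0 of 17 were at least 2-fold higher and 6 were lower, with a median of -0.66 beside -0.03 over all genes. The list's summed level was 5063 CPM in members, 8478 in Dcn-high, 2058 in Pax7-positive and 297 in Myog-high cells.

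The list did not shift as a block. Col3a1, a fibrillar collagen, stood at 1494 CPM in members, 2361 in Dcn-high and 586 in Pax7-positive cells. Fibronectin, encoded by Fn1, was nearly level with Dcn-high cells (902 against 1046 CPM, log2 ratio -0.21, -0.26 to -0.17) and above the 276 of Pax7-positive cells. Twist1, a mesenchymal transcription factor, was higher in members (154 CPM) than in both Dcn-high (94.8) and Pax7-positive cells (50.8). Its relative Twist2 followed the opposite order between members and Dcn-high cells, at 23.3 CPM against 166, with 2.76 in Pax7-positive cells. Pdgfra, the receptor that marks fibroblasts and fibro-adipogenic cells of muscle, stood at 22.3, 68.6 and 2.76 CPM in the same order. Lum, a proteoglycan close to Dcn, was nearly absent from members, with 7 UMIs in all (0.759 CPM) against 160.5 CPM in Dcn-high cells. Fbln1, a matrix glycoprotein, went the other way, at 101 CPM in members, 52.2 in Dcn-high and 141 in Pax7-positive cells.

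Genes of satellite cells lay between the comparison sets as well. Of 12 such genes at 10 CPM or more (Pax7 left out), 7 were at least 2-fold higher in members than in Dcn-high cells and 0 lower (median log2 ratio 1.11 over 14 genes). Of 13 compared with Pax7-positive cells, 0 were at least 2-fold higher and 4 lower (median -0.73 over 15 genes). The 4 were Myf5, an early myogenic factor, Cdh15 (M-cadherin), the receptor Fgfr4 and Msc (musculin). Myf5 stood at 32.6 CPM in members, 5.13 in Dcn-high and 80.3 in Pax7-positive cells. Cdh15 stood at 60.8, 21.3 and 199 CPM, and Fgfr4 at 19.7, 7.29 and 106, in that order. Sdc4, a syndecan of satellite cells that other cells also make, was highest in members, at 324 CPM against 204 and 223. Of 8 Notch pathway genes compared with Pax7-positive cells, 0 were at least 2-fold apart. Their list was still lower in members, with a median log2 ratio of -0.74 over 13 genes. Heyl and Hey1, targets of Notch, were at least 2-fold above Dcn-high cells (25.9 against 11.6 CPM and 32.2 against 10.3).

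**Figure D2:**
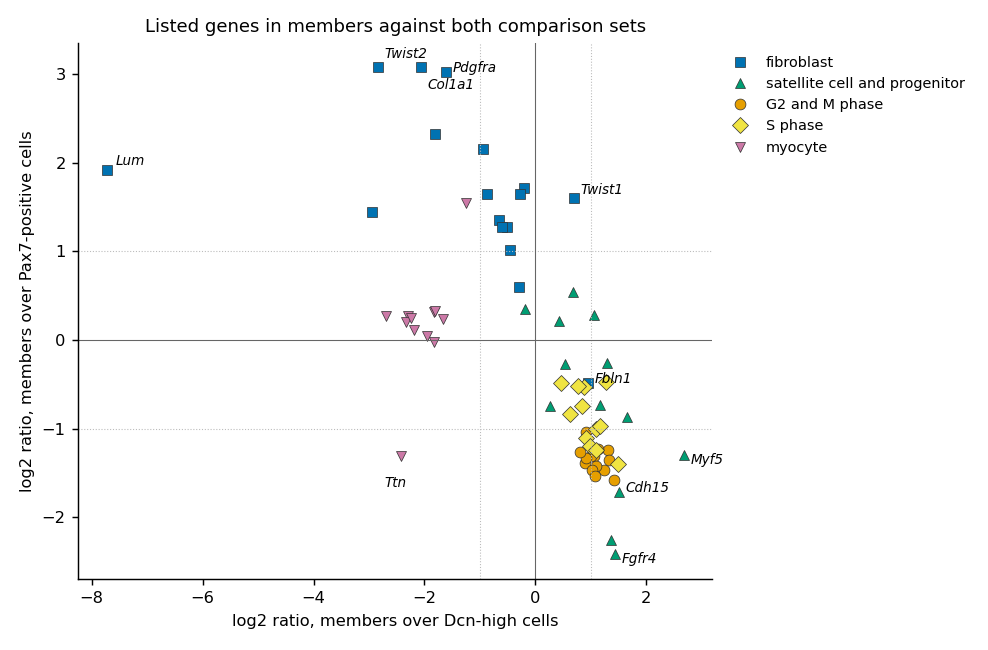
Each point is a gene of 1 of 5 lists, placed by its log2 ratio of members over Dcn-high cells (x) and over Pax7-positive cells (y), selection genes left out; dotted lines mark 2-fold. Fibroblast genes lie mostly at upper left (median -0.66 and 1.65), progenitor and cell cycle genes at lower right (medians 1.11 and -0.73, and 1.07 and -1.35 for G2 and M phase), and myocyte genes at left.

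Muscle differentiation genes were low. The 12 myocyte genes summed to 1176 CPM in members and 1134 in Pax7-positive cells, against 46627 in Myog-high cells, and free RNA would give 715. Of 11 compared with Pax7-positive cells, 1 was at least 2-fold higher and 1 lower (median 0.25). The higher one was Ckm, the muscle creatine kinase, at 15.2 against 5.19 CPM, and the lower one Ttn (titin), at 57.0 against 141. A single cell gave 62.9% of the members' Ckm UMIs, and without it Ckm stood at 5.66 CPM. For Ttn 1 cell gave 38.4%, and the level without it was 35.2. All 12 were at least 2-fold lower in members than in Dcn-high cells (median -2.07), and 0 of 12 were when Dcn-high cells were limited to 1 Myog UMI. Of 7 committed myoblast genes compared, with Myog left out, 0 were at least 2-fold above and 4 below Pax7-positive cells (median -0.78), among them Myod1 (43.8 against 88.9 CPM) and the cell cycle inhibitor Cdkn1c (73.0 against 239).

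To place members between the comparison sets, genes at least 4-fold apart between the latter and at 20 CPM or more in the higher one were taken, selection genes left out, on the scale of log2(CPM + 1). Of 316 genes higher in Dcn-high cells, members lay nearer the Pax7-positive level at 107 (33.9%, 28.7 to 39.4%), and the median position was 0.57, where 0 is the Pax7-positive and 1 the Dcn-high level. Of 174 genes higher in Pax7-positive cells, members lay nearer the Pax7-positive level at 48 (27.6%, 21.1 to 34.9%), with a median position of 0.56. Members lay beyond either comparison set at 9 of the 316 genes and at 3 of the 174. In both directions the median gene stood slightly past the midpoint towards Dcn-high cells. With Dcn-high cells limited to 1 Myog UMI the shares were 31.6% of 329 genes and 38.4% of 229 genes, with median positions of 0.57 and 0.53. Genes of the cell cycle entered the second group, with 19 of the 174 on the S, G2 and M phase lists and more outside them. An alternative added after the data were seen therefore left out every cell with a Mki67 or Top2a UMI, which kept 293 members, 276 Dcn-high and 526 Pax7-positive cells. Members then lay nearer the Pax7-positive level at 53.3% (46.3 to 60.2%) of 210 genes and at 42.9% (29.7 to 56.8%) of 56 genes, with median positions of 0.49 and 0.54. Without the 20 members of 1 small cluster (cluster 12, described with the clusters) the shares were 41.8% of the 316 genes and 31.0% of the 174.

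Single members were spread over this range and did not share 1 intermediate level. Each cell was thinned to 5000 UMIs, and UMIs of the 329 genes were set against those of the 229 as a log2 ratio, with 1 added to each sum. This score was made after the data were seen, and its Pax7-positive genes include those of the cell cycle. It had a median of 2.52 in members (quartiles 1.07 and 3.58), 4.91 in the Dcn-high cells limited on Myog and -2.09 in Pax7-positive cells. Of the members, 165 (34.7%) scored at or below the 90th percentile of Pax7-positive cells (1.57), 102 (21.5%) fell between, and 208 (43.8%) scored at or above the 10th percentile of those Dcn-high cells (2.84). Both limits ran through well-filled parts of the members' range, so these are ranges of a score and not cell types. Cells within the same Dcn, Myog and Pax7 limits that held no marker UMI had a median of -1.67, and 86.7% of them scored at or below 1.57.

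**Figure D3:**
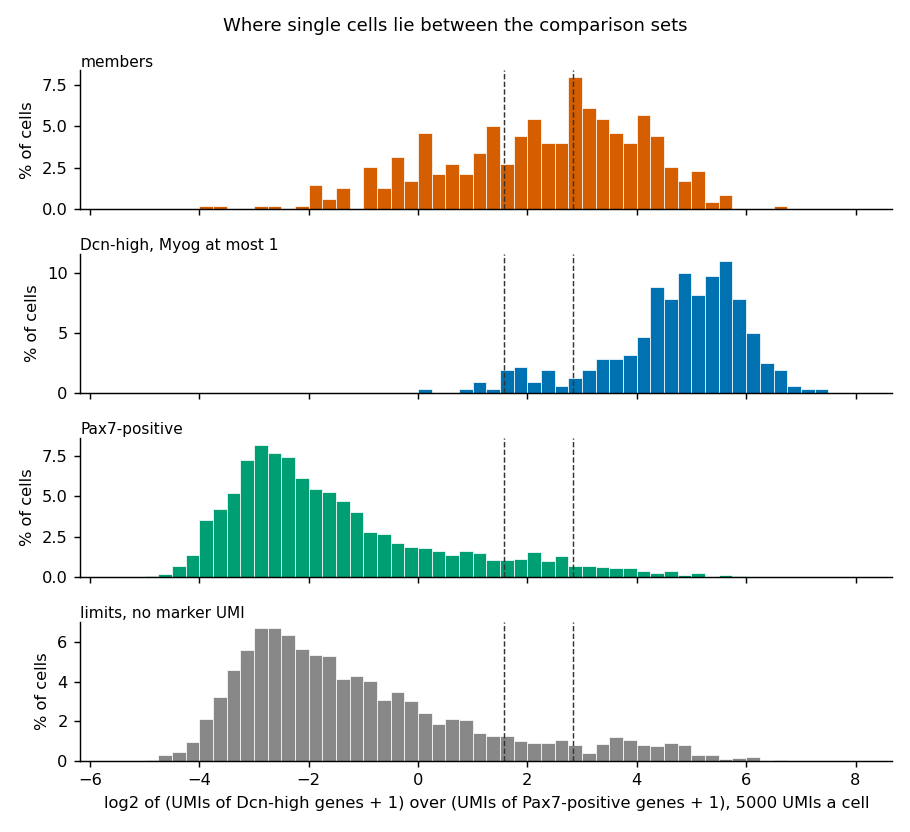
Share of cells (y, percent) by the score of each cell (x, log2 ratio of summed UMIs of Dcn-high over Pax7-positive genes at 5000 UMIs) in 4 cell sets. Dashed lines mark the 90th percentile of Pax7-positive cells (1.57) and the 10th of Dcn-high cells with at most 1 Myog UMI (2.84). Members spread across both lines with a median of 2.52, while cells within the same limits without a marker UMI have a median of -1.67.

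Few genes stood above both comparison sets in members. Of 8356 genes at 10 CPM or more in 1 of the 3 sets, 17 were at least 2-fold higher in members than in both others (0.203%), and 23 were at least 2-fold lower than in both (0.275%). With the Dcn-high cells limited on Myog the count of higher genes was 13. The 17 included Gal, which encodes the neuropeptide galanin, at 146 CPM (138 to 154) in members, 23.5 in Dcn-high and 67.7 in Pax7-positive cells. Prkg2, a cGMP-dependent protein kinase, stood at 89.8, 37.9 and 33.5 CPM in the same order, and Ahr, a ligand-activated transcription factor, at 86.6, 40.6 and 32.4. Gal was seen in 17.1% of members after thinning (13.8 to 20.7%), in 13.1% of Pax7-positive and in 5.85% of Dcn-high cells, so its members' level came from a minority of cells. The count of higher genes was 6 when cells with a Mki67 or Top2a UMI were left out of all sets.

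Ranked by the smaller of their ratios to the comparison sets, 10 genes at 50 CPM or more in members were taken, and 5 of them passed 2-fold against both. Beside Gal, Prkg2 and Ahr these were Pmepa1, which TGF-beta induces, at 84.3 CPM against 40.9 in Dcn-high and 33.6 in Pax7-positive cells, and Ptn (pleiotrophin, a secreted growth factor), at 252 against 116 and 124. Fbln2, a matrix fibulin, missed narrowly with 94.1 CPM against 39.0 and 47.2. Fap, a cell-surface protease of activated fibroblasts, stood at 142 CPM against 78.3 and 71.2. The smallest of the 10 differences was that of Efnb1, an ephrin ligand, at 74.0 CPM against 45.1 and 38.1. Ahr and Pmepa1 had log2 ratios to Dcn-high cells of 1.09 and 1.04, which became 0.92 and 0.99 with Myog limited, so their calls did not hold there. With cells holding Mki67 or Top2a left out, none of the 5 was 2-fold above Pax7-positive cells. The log2 ratios were 0.24 for Gal, 0.89 for Prkg2, 0.57 for Ahr, 0.87 for Pmepa1 and 0.90 for Ptn, against 1.11, 1.42, 1.42, 1.33 and 1.02 with all cells. The 20 members of cluster 12 also carried part of the difference, since without them Pmepa1 had log2 ratios of 0.70 and 0.99 to the comparison sets and Ptn of 0.90 and 0.81. Ptn stood at 194 CPM in cells within the members' limits that held no marker UMI.

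**Figure D4:**
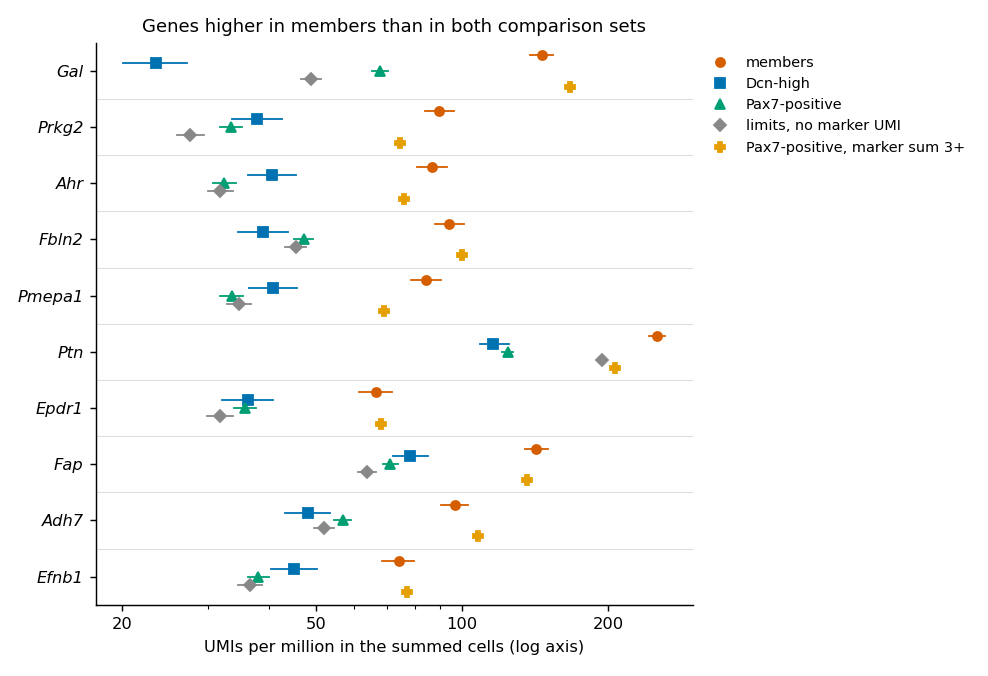
Level (CPM, log axis) of the 10 genes that stood most clearly above both comparison sets, with exact 95% Poisson intervals as lines for all but the last set. Members exceed the Dcn-high and Pax7-positive cells at each gene (Gal 146 against 23.5 and 67.7), and Pax7-positive cells with at least 3 marker UMIs stand close to members (Gal 167, Prkg2 74.4).

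The 10 genes were also high in cells that the Pax7 limit left out. Of the Pax7-positive cells, 208 held at least 3 UMIs of Scg2, Sfrp4 and Cxcl14, and in these Gal stood at 167 CPM, Prkg2 at 74.4, Ahr at 76.1 and Fap at 136. In the Pax7-positive cells with no such UMI they stood at 46.6, 23.6, 21.0 and 57.7 CPM. Against cells within the members' limits that held no marker UMI, 455 of 7836 genes were at least 2-fold higher in members (5.81%) and 252 at least 2-fold lower (3.22%). Among Pax7-positive cells, 526 of 7624 genes were at least 2-fold higher with markers than without (6.90%). Of the 402 genes called in the first comparison and measured in both, 361 were also called in the second, 89.8% of the first list and 68.6% of the second. The 2 comparisons use different cells, and both sort cells by the same 3 genes. With Scrublet doublets removed it was 370 of the 402 (92.0%). In Dcn-high cells Gal stood at 16.3 CPM with at least 3 marker UMIs and 30.1 with none, and Prkg2 at 48.1 and 34.2.

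Cell cycle genes in members lay between the levels of Pax7-positive and Dcn-high cells. After thinning, Mki67, a marker of dividing cells, was seen in 66 of 475 members (13.9%, 10.9 to 17.3%), in 41.3% of Pax7-positive, 6.41% of Dcn-high and 8.03% of Myog-high cells. All 14 genes of G2 and M phase were at least 2-fold below Pax7-positive cells (median -1.35), and 10 of 14 at least 2-fold above Dcn-high cells (median 1.07). Against cells within the members' limits that held no marker UMI, 0 of the 14 were at least 2-fold lower (median -0.78). Mki67 was seen in 27.7% of those cells after thinning. Top2a, the topoisomerase of dividing cells, stood at 149 CPM in members, 413 in Pax7-positive and 63.0 in Dcn-high cells. Of 12 S phase genes, 5 were at least 2-fold below Pax7-positive and 5 at least 2-fold above Dcn-high cells. Among 10 genes of cell cycle exit, Cdkn2b and Igfbp3 were at least 2-fold above Pax7-positive cells (119.8 against 49.8 CPM and 814 against 399), and Cdkn1c, also counted above, was below.

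Signalling genes separated members mainly from Pax7-positive cells. Spp1 (osteopontin), a secreted phosphoprotein of bone and wounded tissue, stood at 8907 CPM in members, 12199 in Dcn-high and 1633 in Pax7-positive cells, and was seen in 471 of 475 members after thinning. The cAMP list held 3 of 9 genes at least 2-fold above Pax7-positive cells and 0 below. They were Areg, a growth factor of the EGF family, at 585 against 89.5 CPM, the nuclear receptor Nr4a1 at 34.5 against 12.5, and Crem, a cAMP-responsive factor, at 27.4 against 12.3. Against Dcn-high cells 0 of the 9 were higher and 1, Areg, was lower (1253 CPM there). Of 8 TGF-beta targets, 6 were at least 2-fold above Pax7-positive cells, beside 6.67% of all genes. Against Dcn-high cells, 2 of 9 were at least 2-fold above and 2 below. The 6 included Ccn2, for which the 20 members of cluster 12 held 84.1% of the member UMIs. Without them Ccn2 stood at 3.98 CPM instead of 23.9.

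Some Wnt genes were at least 2-fold apart from Pax7-positive cells. Over all genes 6.67% were higher and 5.23% lower. Of 10 Wnt ligands and receptors, 2 were at least 2-fold above Pax7-positive cells, Wnt5a (91.5 against 30 CPM) and Fzd1 (41.9 against 10.3), and 1, Fzd4, was below (15.6 against 43.3). Of 4 Wnt targets 0 were above and 1, Lgr5, was below, at 0.976 against 11.5 CPM. Ccnd1, a cyclin that Wnt signalling can induce, stood at 248 CPM in members and 238 in Pax7-positive cells. Of 2 secreted Wnt inhibitors compared, Sfrp4 left out, 2 were at least 2-fold above Pax7-positive cells. They were Dkk2 (17.1 against 3.46 CPM) and Dkk3 (10.4 against 1.23). Against Dcn-high cells, 0 of 3 inhibitors were at least 2-fold higher in members and 2 were lower. The inhibitor list summed to 36.8 CPM in members, 75.3 in Dcn-high and 16.5 in Pax7-positive cells. Of 10 Wnt ligands and receptors, 1 was at least 2-fold above Dcn-high cells and 0 below, and Fzd1 stood at 48.6 CPM there. Sfrp2, at 0.542 CPM in members, was nearly absent.

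Several inflammatory genes lay between the comparison sets again. All 7 chemokine and cytokine genes at 10 CPM or more, Cxcl14 left out, were at least 2-fold above Pax7-positive cells. Against Dcn-high cells, 6 of 10 were at least 2-fold below. Over all genes the shares were 6.67% and 5.37%. Cxcl10, under 10 CPM in members and Pax7-positive cells, lay below both sets, at 0.325 CPM against 33.3 in Dcn-high and 3.96 in Pax7-positive cells. Ccl2 and Ccl7, which attract monocytes, stood at 51.3 and 36.1 CPM in members, 168 and 174 in Dcn-high, and 9.72 and 5.44 in Pax7-positive cells. Il33, an alarmin, was level with Dcn-high cells (146 against 166 CPM) and above Pax7-positive cells (48.3). Of 5 prostaglandin genes 4 were at least 2-fold above Pax7-positive and 3 below Dcn-high cells. Ptgs2, the inducible cyclooxygenase, stood at 81.1 CPM in members, 524 in Dcn-high and 9.37 in Pax7-positive cells.

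Of the 11 other secretory granule genes listed, 3 reached 10 CPM, and 5 had no UMI in any member. The list summed to 181 CPM in members, 282 in Dcn-high and 94.4 in Pax7-positive cells. The granule-associated enzyme Cpe stood at 41.9 CPM in members, between the 131 of Dcn-high and the 18.0 of Pax7-positive cells. Nucb2 stood at 30.4 CPM, against 52.4 and 11.8, and Pam at 107 against 96.2 and 63.9. Snap25, a protein of vesicle fusion, was at 16.4 CPM in members and 19.3 in Dcn-high cells, above the 3.73 of Pax7-positive cells. Among other neuron genes Map2 and Nefl were lower in members than in Pax7-positive cells (7.81 against 23.6 CPM and 13.4 against 22.4). Endothelial, immune and epithelial lists summed to 0.651, 1.95 and 0.108 CPM, and glial genes to 6.4. Smooth muscle and pericyte genes summed to 953 CPM in members, 1096 in Dcn-high and 481 in Pax7-positive cells. Of 9 compared with Pax7-positive cells, 5 were at least 2-fold higher in members, beside 6.67% of all genes. The median member, Dcn-high and Pax7-positive cell held 304, 418 and 311 CPM, so the typical member was not above Pax7-positive cells. Cells within the members' limits that held no marker UMI summed to 837 CPM, and 1 of 10 genes was at least 2-fold higher in members than there. The part of smooth muscle genes in the differences was not tested. Stress and immediate early genes, which dissociation can raise, summed to 1525 CPM in members, 1974 in Dcn-high and 1166 in Pax7-positive cells. Of the 12, 2 were at least 2-fold above Pax7-positive cells, beside 6.67% of all genes.

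Of the 8 genes furthest above Dcn-high cells, Gal stood first. The others included Stmn2, a regulator of microtubules in neurons (163 against 29.0 CPM), and Pde1a, a calmodulin-dependent phosphodiesterase (63.8 against 12). Rdh10, which makes retinaldehyde, stood at 65.4 against 18.0 CPM, and Mgp, the matrix Gla protein, at 652 against 231. Slf2 and Pclaf, with roles in DNA repair and replication, had log2 ratios of 1.46 and 1.36, and Cdh15 was the other. On the lower side stood Mmp3, a matrix metalloprotease with 10 UMIs in members (1.08 CPM) against 285 CPM, and Lum. Crabp1 and Cyp26b1, which bind and degrade retinoic acid, stood at 433 against 3643 and 23.7 against 214 CPM. Ccl5 stood at 11.6 against 169 CPM, with 40.2% of its member UMIs in 1 cell, and the neuropeptide gene Grp at 5.96 against 51.6, with 32.7% in 1 cell. Prl2c2 and Prl2c3, near-identical proliferin genes between which reads can be split, stood at 9.33 against 107 and 11.7 against 120.4 CPM.

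Against Pax7-positive cells the furthest genes were Slpi, Ptgs2, Ereg, Grem1, Col1a1, Crabp1, Btc and Aebp1 on the higher side. Ereg and Btc, growth factors of the EGF family like Areg, stood at 84.3 against 9.90 and 74.2 against 10.6 CPM. Grem1, an antagonist of BMPs, stood at 93.6 against 11.1 CPM, and Col1a1, a chain of type I collagen, at 166 against 19.6. The 20 members of cluster 12 held 52.5% of the members' Col1a1 UMIs and 44.1% of those of Grem1, and without them the levels were 82.6 and 54.8 CPM. Cells within the same limits that held no marker UMI had Col1a1 at 146 CPM, so this gene differed little between them and members (log2 ratio 0.18). Slpi, a secreted protease inhibitor, stood at 59.1 against 2.91 CPM, with 25.9% of its member UMIs in 1 cell. The lower side held the imprinted genes Nnat (39.0 against 328 CPM) and Mest (68.5 against 531), the transcriptional cofactor Cited1 (8.24 against 63.9), Capn6 (32.6 against 179), Nrk (29.4 against 155), Parm1 (23.3 against 119) and the ankyrin Ank1 (19.8 against 86.0), beside Fgfr4. Mest stood at 136 CPM in the Pax7-positive cells with marker UMIs and at 627 in those without.

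The count of 23 genes lower in members than in both comparison sets became 5 when Dcn-high cells were limited to 1 Myog UMI. Ttn, Tnnt1 (slow troponin T, 98.9 CPM against 262 and 380.5), Cdkn1c and Dlk1, an imprinted Notch-like ligand, were among those lost. The interferon-induced genes Cxcl10 and Ifit1 were among the 5. Cxcl10 had 3 UMIs in members, a log2 ratio of -6.68 (-8.97 to -5.12) to Dcn-high and -3.61 (-5.90 to -2.03) to Pax7-positive cells.

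Members fell into several groups by genes that the selection did not use. Kept cells were clustered on 2000 variable genes with every gene of the fixed lists left out, into 12 clusters that are called by number and leading genes. Cluster 3 (led by Mmp3, Dcn and Lum) held 223 members (46.9%) and 88.9% of Dcn-high cells. Cluster 8 (led by Mmp9, Rgs5 and Rdh10) held 118 members (24.8%), 10.2% of Pax7-positive and 0.279% of Dcn-high cells. Cluster 9 (led by Cdkn3, Aspm and Cenpf) held 62 members (13.1%), and the other 72 were spread over 6 clusters. Of cluster 3's own cells 17.3% were members, and of cluster 8's 16.9%.

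**Figure D5:**
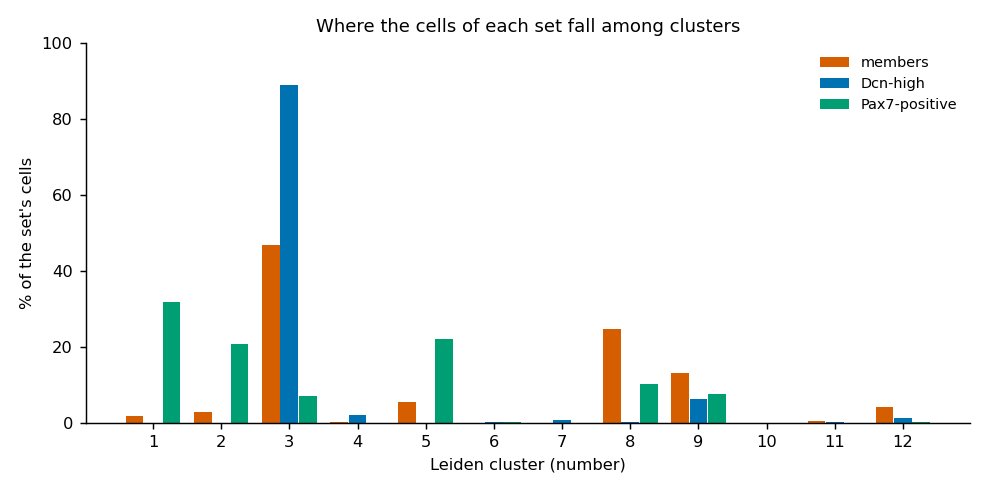
Share of the members, Dcn-high and Pax7-positive cells (y, percent of each set) that fell in each of 12 clusters of the iMPC library (x, cluster number). Dcn-high cells sit mostly in cluster 3 (88.9%), Pax7-positive cells in clusters 1, 2 and 5, and members in clusters 3 (46.9%), 8 (24.8%) and 9 (13.1%).

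Listed genes, which took no part in the clustering, differed between these groups of members. Genes that vary with them were open to the clustering, so these differences are descriptions only. Pdgfra stood at 29.0 CPM in members of cluster 3 and 6.23 in cluster 8, and Twist2 at 37.2 and 4.67, while Myf5 stood at 17.6 and 49.9. Twist1 was close in both, at 179 and 165 CPM, as was Cxcl14 at 206 and 203, and Scg2 stood at 317 and 207. Mki67 was seen in 1.79% of members in cluster 3, 0.847% in cluster 8 and 58.1% in cluster 9, so members with Mki67 RNA were mostly outside the larger groups. The score between the comparison sets, most of whose genes were open to the clustering, had a median of 3.39 in members of cluster 3, 2.13 in cluster 8 and 0.32 in cluster 9. The 20 members of cluster 12 (with Ltbp2 and Il11 among its leading genes) held 4.67 CPM of Scg2 and 422 of Cxcl14, with 1874 CPM of Col1a1 and 3451 of Fn1.

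Among the 15 nearest neighbours of a member on the same genes, 28.4% were members, against 5.08% of all kept cells. Pax7-positive cells made up 20.8% of these neighbours (19.7% of all cells), Dcn-high cells 4.39% (3.84%), and Myog-high cells 0.168% (25%). Another 20.3% were cells that had at least 3 marker UMIs and broke a limit, which are 6.35% of all cells. Of the members, 38 had no member among their 15 neighbours.

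Levels of some genes also differed with the amount of marker RNA. Splits of members by marker or Pax7 UMIs use the counts that selected them, so they are descriptions only. Members with 10 or more marker UMIs held Spp1 at 12217 CPM, Fn1 at 1149 and Pdgfra at 38.6, against 5260, 714 and 11.9 in members with 3. Fgfr4 stood at 8.84 CPM in the former and 38.2 in the latter, and Mest at 39.8 and 118. Median depth was 18390 and 18050 UMIs in these groups. Prkg2 and Fap differed less, at 105 against 76.4 and 149.9 against 132 CPM. Col1a1 did not follow the marker count. It stood at 154, 248, 73.3 and 170 CPM in members with 3, 4 to 5, 6 to 9 and 10 or more marker UMIs. Members with 0 and with 1 Pax7 UMI held Spp1 at 8931 and 8872 CPM, Prkg2 at 86.3 and 94.7, and Twist1 at 147 and 164. Fgfr4 stood at 15.4 and 25.8 CPM in these groups, and Col1a1 at 252 and 45.8.

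In the MEF library, 97 of 6012 kept cells met the same 4 limits (1.61%, 1.31 to 1.96%), and 95 of these held Cxcl14 while 2 held Scg2. Scg2 stood at 0.152 CPM in MEFs and Cxcl14 at 17.4, so MEF cells within the limits met them through Cxcl14. Gal and Ahr, both at least 2-fold above the comparison sets in members, stood at 0.541 and 0.372 CPM in MEFs, while Ptn and Pmepa1 stood at 1952 and 377. Cell calling and depth (median 19032 UMIs in MEFs) differed between the libraries, and culture and library cannot be told apart.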

How the data were processed

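Droplet 3′ single-cell RNA-seq of 1 iMPC and 1 MEF library was read from the deposited matrices, whose values are unnormalised UMI counts. The submitters' processing notes name Cell Ranger 4.0, Seurat 3.2.3 and GRCm38.p6. No normalisation is recorded for these counts. The MEF sample's protocol field repeats the iMPC treatment, and its own treatment label was used.

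The iMPC matrix lists 6794880 barcodes, 2707590 of them with a UMI. Barcodes were kept at 8036 UMIs or more (above 10% of the 99th percentile of the 10000 largest), 500 genes or more and at most 20% mitochondrial UMIs. The rule, the members and the gene lists were chosen with earlier results of these data known, and support nothing by themselves. The self-made sets (cells without marker UMIs, Pax7-positive cells with and without them, the Myog-limited Dcn-high cells, the score, the subsets by cluster, and the results without cluster 12 or without cells holding Mki67 or Top2a) were added after the data were seen.

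UMIs were summed per cell set and compared as CPM. Intervals are exact Poisson for sums, exact conditional for ratios and exact binomial (Clopper-Pearson) for shares, at 95%. A gene at 0 in 1 set took a floor of 3 counts. Counts of list genes use those at 10 CPM or more in either set, and list medians those with at least 10 UMIs. Named genes are the 6 selection genes, Asgr1, Ptgfr, the 8 largest ratios each way against each comparison set at 50 CPM or more, the 10 largest smaller ratios to both, and members of the fixed lists. The lists cover 315 genes, of which 313 were found. Clustering used log values after scaling each cell to 10000, on 2000 variable genes, 30 principal components and 15 exact neighbours, with Leiden resolution 0.6. Doublets were scored with Scrublet and kept in the main results. The ratio code was tested on simulated counts. Gene positions come from GENCODE M21, in which 25989 of 26100 identifiers were found, and promoter windows from RefSeq. The tools were scanpy 1.11.5 with igraph 0.11.9 for clusters, scipy 1.17.1 for intervals, and Python 3.11.15 with numpy 2.4.6 elsewhere. Alternatives covered cell calling, filters, doublets, each limit of the rule, scaling, free RNA, thinning, minimum level, pseudocount and fold.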

Additional observations from a re-analysis of the deposited data

How the results depend on the processing

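Of 100 recomputed values, 71 stayed within the limits of the reported one (counts: within 1.5 times). The limits were the binomial interval for shares of cells or genes. For the list medians they were the medians of the genes' lower and upper ratio limits. Only the list medians could change sign, and none did. The share of cells that are members followed its own limits, at 6.81% with a summed count of at least 2, 2.43% with 6, 4.27% with Dcn at 0, 2.01% with Pax7 and Myog at 0 and 2.91% with at least 2 of the 3 genes. The count of genes 2-fold above both comparison sets, 17 as reported, was 10 with a summed count of 2, 27 with 6, 5 at 50 CPM, 6 without cells holding Mki67 or Top2a and 168 with no minimum level. The share of Dcn-high genes nearer the Pax7-positive level was 40.5% with Dcn at 0, 26.3% with Pax7 and Myog at 0, 53.3% without cells holding Mki67 or Top2a and 41.8% without members of cluster 12. The share of Pax7-positive genes nearer that level was 12.1% with a summed count of 6, 17.2% with Pax7 and Myog at 0, 18.0% as a mean over cells, 42.9% without cells holding Mki67 or Top2a and 38.4% with the Myog limit on Dcn-high cells. The Myog limit and the alternatives on Mki67 or Top2a and on cluster 12 were chosen after seeing the data. The fibroblast median against Dcn-high cells, -0.66 as reported, was -0.71 at 1.5 times the UMI threshold, -0.76 without doublets, -0.71 and -0.59 with summed counts of 2 and 6, -0.58 without mitochondrial and ribosomal protein genes, -0.58 without cells holding Mki67 or Top2a and -0.80 with the Myog limit. The progenitor median against Pax7-positive cells, -0.73 as reported, was -0.49 without cells holding Mki67 or Top2a. Mki67 was seen in 6.95% of members at 2000 UMIs and 24.8% without thinning. Among 84 log2 ratios of named genes, 55 kept their side of 2-fold throughout, and 1 called ratio changed sign, that of Ccl5 over Pax7-positive cells, at -0.14 with a summed count of 6. The causes were not tested. No paired analysis was possible because each group has 1 library. Low counts limit several named genes, with 129 UMIs of Sfrp4, 119 of Asgr1, 10 of Mmp3, 7 of Lum and 3 of Cxcl10 over all members.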

Other observations

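Members that held Scg2 without Cxcl14 (75 cells) and Cxcl14 without Scg2 (158 cells) were also compared, after the data were seen, and the genes named are the 6 furthest apart each way. Of 2791 genes compared, 23 were at least 2-fold higher towards Scg2 and 31 towards Cxcl14. Towards Scg2 stood Cck, which encodes the peptide hormone cholecystokinin, at 466 against 145 CPM (log2 ratio 1.68, 1.5 to 1.86). Gdf15, a stress-induced cytokine, stood at 82.7 against 26.3 CPM, the scavenger receptor Scara5 at 61.8 against 20.1 and Rgs5 at 73.1 against 24.0. The histone genes Hist1h2bc and Hist1h1c had log2 ratios of 1.65 and 1.60. Towards Cxcl14 stood Col1a1 at 360.2 against 34.5 CPM, Postn at 69.1 against 12.8, Ccl7 at 55.8 against 8.03 and Cxcl1 at 75.5 against 15.3. Ccn2, a matricellular protein, had 189 UMIs in the cells with Cxcl14 and 0 in the cells with Scg2. Flt1, a VEGF receptor, had a log2 ratio of -1.95 (-2.66 to -1.32). Without the 20 members of cluster 12, which hold 4.67 CPM of Scg2, Col1a1 stood at 122 against 34.5 CPM, Postn at 29.0 against 12.8, and Ccn2 had 4 UMIs in the cells with Cxcl14, while Cck stood at 466 against 128. Intervals cover counting error only, and the groups share 1 library.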
